A study of Danio rerio with 13 samples.

Results

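In zebrafish embryos, 190 stretches of 10 kb on 1 strand held few hnRNP A1 crosslink cDNAs before zygotic genome activation and several times more, as a share of all cDNAs, during it. They were selected from the uniquely mapped sites of the hnRNP A1 pull-downs as windows with 20 to 99 cDNAs over both stages, a share at least 4 times as high during activation or no site before it, and no uniquely mapped site in either IgG control. The mitochondrial genome and chromosome 4 from 27.9 Mb onward were left out. In all, 19341 windows held a uniquely mapped hnRNP A1 site, of which the gained windows were 0.982%. Of these, 3236 held 20 to 99 cDNAs with no IgG site in the parts of the genome that were kept, and the gained windows were 5.87% of them. That percentage follows from the rule and is given as a description only.

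hnRNP A1 is an abundant RNA-binding protein that shuttles between nucleus and cytoplasm and is known for its part in splice site choice and in the processing of some microRNA precursors. In early fish embryos the RNA is almost entirely maternal until the genome of the embryo becomes transcriptionally active, after which embryonic transcripts appear and many maternal ones are cleared. In iCLIP, ultraviolet light joins a protein to the RNA it touches, and reverse transcription tends to stop at the joined nucleotide, so the end of each cDNA marks a contact with single-nucleotide resolution.

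The study used wild-type AB embryos crosslinked with 254 nm light at the 32-cell stage (preZGA, 3 hnRNP A1 and 3 IgG samples) and at the 1000-cell stage (ZGA, 4 hnRNP A1 and 3 IgG samples). Whole embryos were lysed, so all their cells contributed, and the hnRNP A1 complexes were pulled down with a mouse antibody to hnRNP A1. The samples of each group were deposited as 1 pooled table, so no spread between samples could be measured and no test between stages was made. A cDNA that came from 1 sample of a pool cannot be told apart from one seen in all of them. Intervals below are exact 95% intervals that cover counting error only. The uniquely mapped hnRNP A1 tables held 583691 cDNAs at 287588 sites for preZGA and 480927 cDNAs at 200258 sites for ZGA, where a site is 1 nucleotide on 1 strand. The IgG tables were much smaller, with 9606 cDNAs for preZGA and 20262 for ZGA. All tables list only sites that passed the authors' significance filter, so a window without a site is one in which none was listed. Any cDNAs that the filter removed enter neither the counts nor the intervals.

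The 190 gained windows together held 728 cDNAs at 500 sites at preZGA, which was 0.125% of that table. At ZGA they held 5751 cDNAs at 2655 sites, or 1.20% of the table. A single window held between 16 and 83 cDNAs at ZGA, with a median of 26 and quartiles of 20 and 34.75. Many were thus close to the lower count limit, since 93 windows had at most 25 ZGA cDNAs and 122 had under 30, while 22 had at least 50. In 54 windows no preZGA site was listed (1.67% of the 3236). The other 136 held 1 to 20 preZGA cDNAs with a median of 5, and their share ratios (the fraction of the ZGA table over the fraction of the preZGA table) ran from 4.05 to 47.3 with a median of 6.42. The ratio reached 8 in 46 of these windows and 16 in 14 of them. The interval of the ratio, or its lower bound where no preZGA site was listed, lay above 1 in all 190 windows, the smallest bound being 1.46, and above 4 in 71. All of these stage values were used to choose the windows and support nothing by themselves. By the mirror rule, 529 of the 3236 windows (16.3%) were lost at ZGA, and in 1714 windows the share stayed within 2-fold. Where only sites of at least 2 cDNAs were counted, 116 windows met the rule, of which 88 were among the 190.

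**Figure D1:**
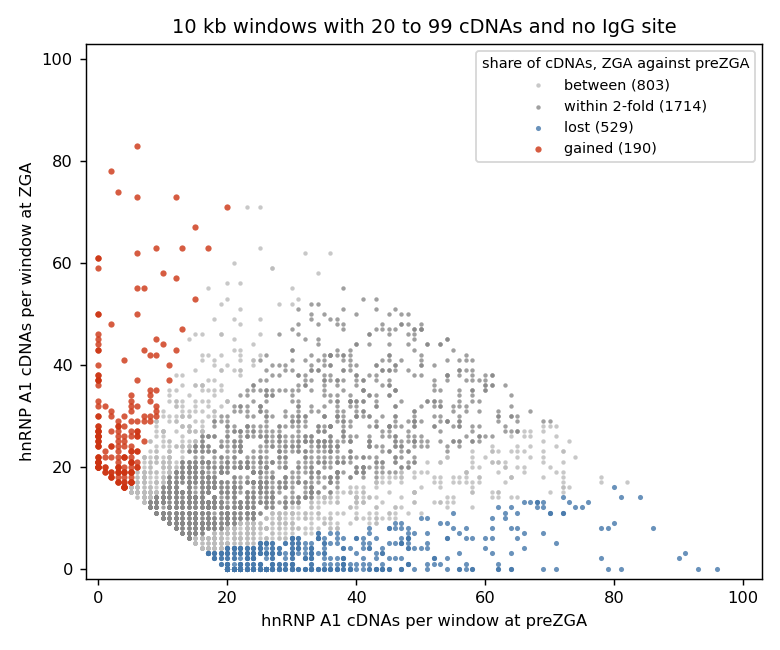
Uniquely mapped hnRNP A1 cDNAs at preZGA (horizontal axis) and ZGA (vertical axis) in each of the 3236 windows with 20 to 99 cDNAs and no IgG site, 1 point per window, coloured by the share ratio. The 190 gained windows lie along the left edge, with at most 20 preZGA cDNAs each, and most of them sit below 35 ZGA cDNAs.

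Near the limits of the rule the windows formed a continuous series. The 3 windows just inside the ratio limit had a ratio of 4.05. Of these, chr7:62410001-62420000 on the minus strand went from 9 to 30 cDNAs, and 1 window each on chromosomes 21 and 3 went from 6 to 20. The nearest window outside, chr12:39570001-39580000 on the minus strand, went from 17 to 55 cDNAs at a ratio of 3.93. The next 4 outside had ratios of 3.90 to 3.91, with 29 to 45 ZGA cDNAs. At the lower count limit, 34 gained windows had a total of 20 or 21 cDNAs, and 43 windows with 18 or 19 cDNAs met every other part of the rule. At the upper limit the gap was wider. The largest gained total was 91, and the next window that met the other parts held 102.

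The gained window with the most ZGA cDNAs was chr3:47560001-47570000 on the plus strand (Zv9 build), with 6 cDNAs at preZGA and 83 at ZGA. All 83 lay at 11 sites within 14 nucleotides, and the strongest nucleotide, position 47569271, held 13 of them. All 6 preZGA cDNAs fell within 15 nucleotides of a ZGA site. The interval of its ratio of 16.8 ran from 7.40 to 47.1.

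The second, chr15:20750001-20760000 on the minus strand, had the highest ratio of the 136 windows with a preZGA site, 47.3 (interval 12.7 to 398). Its 78 ZGA cDNAs ended at 1 nucleotide, position 20753579, and both of its preZGA cDNAs ended there too. With 1 site at each stage, its log2 share ratio was 0.522 by number of sites, against 5.56 by cDNAs. The third, chr6:26570001-26580000 on the minus strand, rose from 3 to 74 cDNAs, spread over 16 sites in 40 nucleotides. In that window none of the 3 preZGA sites coincided with a ZGA site, although all 3 lay within 15 nucleotides of one.

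Other windows of high count were spread far more widely. On chromosome 10 plus, 6570001 to 6580000, the count went from 6 to 73 cDNAs, and the 38 ZGA sites spanned 8975 nucleotides, nearly the whole window. On chromosome 16 minus, 11420001 to 11430000, it went from 20 to 71. That window had the most preZGA cDNAs of the 190, and its 47 ZGA sites spanned 1824 nucleotides, the same length as its 12 preZGA sites. The window with the most sites was chr5:42740001-42750000 on the minus strand. Its 67 ZGA cDNAs, against 15 at preZGA, lay at 54 sites within 236 nucleotides, and its strongest nucleotide held 3 of them (4.48%), the smallest such share of all gained windows. The next smallest share, 6.38%, was in chr13:45400001-45410000 on the minus strand, which went from 13 to 47 cDNAs at 28 ZGA sites over 601 nucleotides.

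Narrow patterns were also found further down the order. In chr9:8450001-8460000 on the minus strand the count went from 15 to 53 cDNAs, and its 8 ZGA sites lay within 8 nucleotides. In chr14:12740001-12750000 on the minus strand it went from 12 to 57, with 17 ZGA sites within 20 nucleotides. All 15 preZGA cDNAs of the first lay within 15 nucleotides of a ZGA site, as did all 12 of the second. In chr16:16500001-16510000 on the plus strand 9 cDNAs became 63, at 21 sites within 55 nucleotides. A wider example was chr19:10920001-10930000 on the minus strand, where 6 cDNAs became 62 at 35 sites within 481 nucleotides and the strongest nucleotide held 4 of them.

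Of the 20 windows with the most ZGA cDNAs, 4 had no listed preZGA site. On chromosome 19 minus, 20870001 to 20880000, there were 61 ZGA cDNAs at 37 sites over 2975 nucleotides. On chromosome 22 plus, 30980001 to 30990000, 61 ZGA cDNAs fell at 21 sites, of which position 30980199 held 20. On chromosome 5 plus, 44840001 to 44850000, 59 ZGA cDNAs fell at 20 sites within 23 nucleotides. The fourth, chr7:9800001-9810000 on the plus strand, held 50 ZGA cDNAs at 20 sites within 307 nucleotides. The lower bounds of their ratios, from listed cDNAs only, were 19.5, 19.5, 18.8 and 15.9. These windows therefore included both narrow and wide patterns, as did the windows with preZGA cDNAs.

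The spread of the cDNAs inside a window was not a term of the rule, but it was not independent of it. It was read from the same ZGA cDNAs that chose the gained windows, which held 5751 cDNAs at ZGA and 728 at preZGA. Such a window could pass the lower count limit through ZGA cDNAs stacked at its strongest nucleotide alone. The lost windows, read at preZGA, were chosen on that stage in the same way, whereas the windows within 2-fold drew on both stages. At ZGA a gained window had a median of 13 sites, and its strongest nucleotide held a median of 18.4% of its cDNAs. The distance from the first to the last site had a median of 91 nucleotides. For the lost windows, read at preZGA, the medians were 21 sites, 11.1% and 417 nucleotides. For the windows within 2-fold, read at ZGA, they were 13 sites, 16.1% and 216 nucleotides. Read at preZGA, the same windows had medians of 16 sites, 13.3% and 312.5 nucleotides, so the values also differed by the stage read. Median counts differed as well, at 26 cDNAs per gained window, 30 per lost window and 19 per window within 2-fold read at ZGA. The part of count, of stage and of the choice of windows in these values was not tested. Windows of at least 100 cDNAs that were at least 2-fold higher at ZGA with no IgG site, 48 in number, had a median span of 31.5 nucleotides and a strongest share of 22.4%. With sites of at least 2 cDNAs only, the windows that met the rule had a median of 7 sites and a strongest share of 27.8%.

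**Figure D2:**
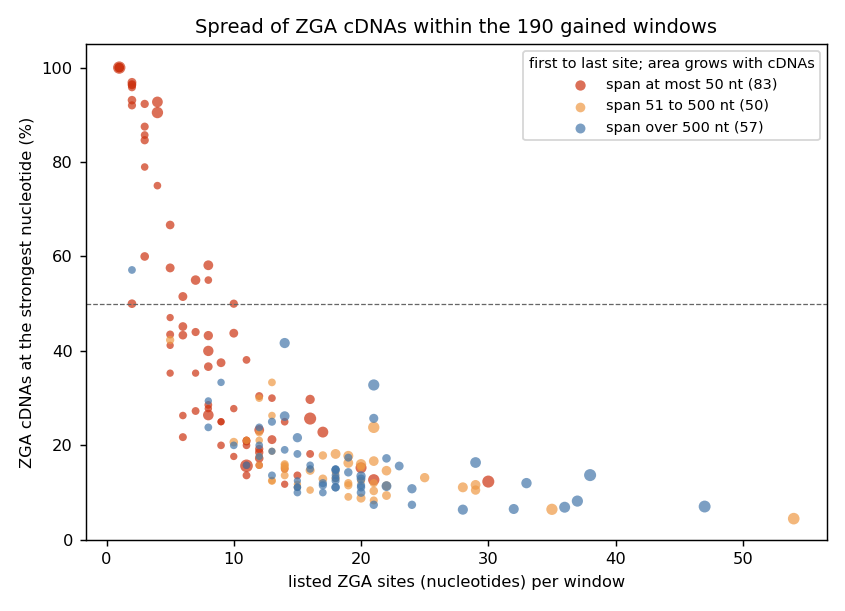
Share of a gained window's ZGA cDNAs at its strongest nucleotide (percent, vertical axis) against its number of listed ZGA sites (horizontal axis), 1 point per window, with area growing with ZGA cDNAs and colour giving the span from first to last site. Points on or above the dashed line at 50% are the 33 windows with at least that share at 1 nucleotide, and nearly all of them span at most 50 nucleotides.

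At 1 end of this range, 33 gained windows (17.4%) had at least 50% of their ZGA cDNAs at 1 nucleotide, and 21 (11.1%) had at least 80%. Among the windows within 2-fold the same counts were 72 of 1714 (4.20%) and 10 (0.583%), and among the 529 lost windows both were 0. Among the 48 higher windows of at least 100 cDNAs they were 5 (10.4%, interval 3.47 to 22.7) and 1 (2.08%). The first of these intervals overlapped that of the gained windows, 12.3 to 23.5. The gained windows were chosen on these same ZGA cDNAs, and the part of that choice in their counts was not tested. A single site made up the whole ZGA signal in 9 gained windows. Those with the most cDNAs were the chromosome 15 window above, with 78, and windows with 40, 36, 30, 28 and 28. These last 5 were chr6:17830001-17840000 on the plus strand, chr6:39150001-39160000 on the minus strand, chr18:44650001-44660000 on the plus strand, chr14:21120001-21130000 on the plus strand and chr22:36750001-36760000 on the minus strand. Of them, 4 had no preZGA site, and the window on chromosome 14 had 3 preZGA cDNAs, all at the same nucleotide as its 28 ZGA cDNAs.

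The preZGA cDNAs of these concentrated windows mostly shared the ZGA nucleotide. The 33 windows held 1027 ZGA cDNAs at 104 sites and 94 preZGA cDNAs, and 61 of the 94 (64.9%) ended exactly at the strongest ZGA nucleotide. Of the 17 windows with a preZGA site, 16 had some there and 8 had all of them there. On chromosome 11 plus, position 28066762 held 57 of 63 ZGA cDNAs and 11 of 13 preZGA cDNAs of its window. On chromosome 10 minus, position 1744617 held 51 of 55 ZGA cDNAs and all 6 preZGA cDNAs. In both windows the strongest nucleotide was the same at preZGA and at ZGA.

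The remaining gained windows fell into 3 classes of similar size by span. In 51 windows the sites lay within 50 nucleotides but no nucleotide reached 50%, and their cDNAs went from 238 to 1512. In 50 windows spanning 51 to 500 nucleotides they went from 193 to 1493, and in 56 windows spanning over 500 nucleotides from 203 to 1719. The share of preZGA cDNAs at the strongest ZGA nucleotide was 16.4%, 3.63% and 7.39% in these classes. The concentrated windows were set apart by their ZGA share at that nucleotide, so the difference from them is a description only. Windows without a preZGA site numbered 16 among the 33 concentrated windows, and 10, 12 and 16 in the other classes.

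When sites at most 15 nucleotides apart were joined, the ZGA sites of the gained windows formed 334 clusters of at least 2 sites with a median length of 16 nucleotides. These clusters held 93.8% of the ZGA cDNAs. The authors' significance filter also used a neighbourhood of 15 nucleotides. Listed sites may therefore lie close together because of the filter, in all classes of windows, which was not tested. There was 1 cluster in 83 windows, none in 10, and at most 5 in any window. In the lost windows the clusters held 99.2% of the preZGA cDNAs with a median length of 18 nucleotides, and in the windows within 2-fold 98.5% of the ZGA cDNAs with a median of 15. A ZGA site in a gained window carried a mean of 2.17 cDNAs, against 1.46 in the windows within 2-fold, and 61.2% of the sites were a single cDNA, against 72.5%. The mean of the gained windows includes the 33 concentrated ones, with 1027 cDNAs at 104 sites, and was read from the ZGA cDNAs that chose the windows. Over all uniquely mapped ZGA hnRNP A1 sites, with the left-out parts of the genome included, the values were 2.40 and 65.1%. The lost windows, read at preZGA, had 1.48 and 68.8%. The 48 higher windows of at least 100 cDNAs, read at ZGA, had 4.86 and 45.0%.

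Where a gained window had preZGA sites, they mostly lay beside its ZGA sites. Of the 500 preZGA sites, 227 coincided with a ZGA site (45.4%, interval 41.0 to 49.9) and 396 lay within 15 nucleotides of one (79.2%, interval 75.4 to 82.7). By cDNAs, 603 of 728 (82.8%) lay within 15 nucleotides. In 97 of the 136 windows with preZGA sites every preZGA cDNA was that close to a ZGA site, and in 20 windows none was. Among the windows within 2-fold, which have far more preZGA sites per window, 63.2% of 32141 preZGA sites lay within 15 nucleotides of a ZGA site and 21.0% coincided with one. About the strongest ZGA nucleotide of the gained windows, 39.1% of their preZGA cDNAs lay within 5 nucleotides and 64.6% within 50. The ZGA cDNAs, on which that nucleotide was chosen, had 55.5% and 78.1%.

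In some named windows the preZGA sites lay apart from the ZGA sites, wholly or in part. In chr19:36990001-37000000 on the minus strand, 3 preZGA cDNAs and 22 ZGA cDNAs were listed, and no preZGA site lay within 15 nucleotides of a ZGA site. The same held for chr12:11450001-11460000 on the minus strand, with 3 and 17 cDNAs. Both rest on 3 preZGA cDNAs. In chr14:31660001-31670000 on the plus strand, 5 of the 10 preZGA cDNAs lay within 15 nucleotides of one of its 36 ZGA sites, and in chr5:42740001-42750000 on the minus strand 8 of 15 did.

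The windows directly next to the gained ones did not in sum show a higher share at ZGA. Leaving out neighbours that were gained windows themselves, there were 375 such windows on the same strand, 85 of which held an hnRNP A1 site, with 6075 cDNAs at preZGA and 4088 at ZGA. Their summed share ratio was 0.817 (interval 0.785 to 0.850). With the gained neighbours kept it was 0.858 (interval 0.825 to 0.892). It was 0.762 next to the lost windows and 0.824 next to the windows within 2-fold, where neighbours of the same class were left out too. Of the 85 next to gained windows, 34 had a higher share at ZGA and 51 a lower one. Next to the windows within 2-fold, 267 of 720 were higher and 453 lower. Next to the lost windows, 85 of 280 were higher and 195 lower. Of those with at least 20 cDNAs, 28 of 248 and 6 of 112 were at least 2-fold higher, and 89 and 26 at least 2-fold lower. Lower neighbours were thus not particular to the gained windows. Of the 43 next to gained windows that held at least 20 cDNAs, 5 were at least 2-fold higher and 17 at least 2-fold lower. The median log2 ratio of these 43 was -0.39. For comparison, the median log2 share ratio over the 2982 eligible windows with cDNAs at both stages was -0.23.

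Several neighbours were among the well-bound windows. Next to chr14:31660001-31670000 on the plus strand, which went from 10 to 58 cDNAs, the following window went from 1064 to 848. Next to chr14:34440001-34450000 on the minus strand, which went from 9 to 45, the following window went from 968 to 713. Next to chr3:31030001-31040000 on the minus strand, at 6 and 20, the preceding window went from 282 to 95 and the following one from 271 to 171. In these places a window with more cDNAs at ZGA bordered one with fewer. These are counts, and the ZGA total was smaller (480927 against 583691 cDNAs at preZGA). A lower count, as in the chromosome 14 neighbours, can thus go with a share that changed little. Other neighbours, named after their values were seen, had more cDNAs at ZGA like the gained window. The window after chr8:41020001-41030000 on the minus strand went from 0 to 171, and the windows beside that gained window held 25 IgG cDNAs. The window after chr5:44730001-44740000 on the plus strand went from 24 to 89, and the one before the wide chromosome 10 window from 16 to 46.

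**Figure D3:**
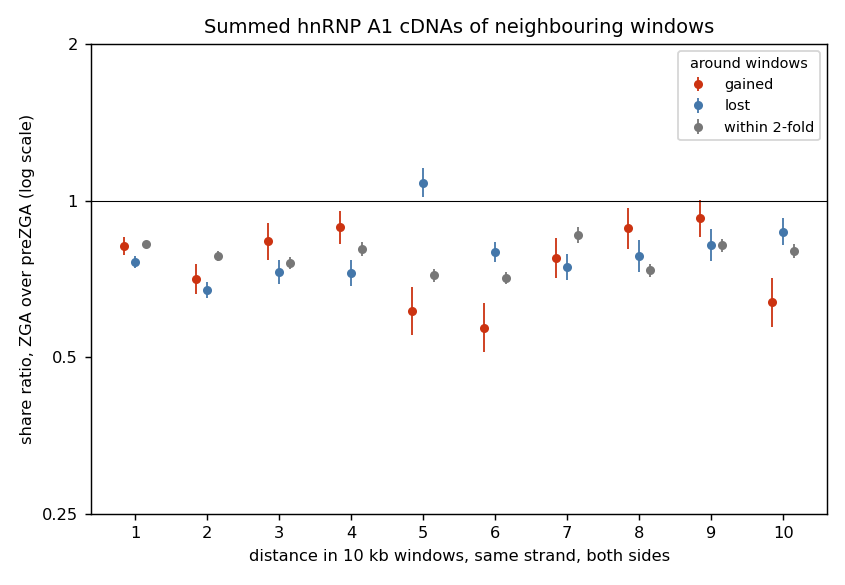
Share ratio of summed hnRNP A1 cDNAs, ZGA over preZGA (vertical log axis), in the windows 1 to 10 places away on the same strand (horizontal axis) from gained, lost and within-2-fold windows, with exact 95% intervals for counting error as bars. At 1 window away the ratio was 0.817 around gained windows. The points around gained windows and around windows within 2-fold lie below 1 at each of the 10 distances. Those around lost windows do so except at 5 windows away (1.08). Neighbours of the same class as the window were left out.

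On the opposite strand of the gained windows, few sites were listed. Of 188 such windows, which leave out the 1 place gained on both strands, 21 held a site, and their cDNAs went from 413 to 507, a summed ratio of 1.49 (interval 1.31 to 1.70). Opposite the windows within 2-fold the ratio was 0.865, with a site in 136 of 1684. Opposite the lost windows it was 0.787, with a site in 55 of 529. Opposite the 48 higher windows of at least 100 cDNAs it was 0.641, with a site in 14. The share was higher at ZGA in 16 of the 21 windows opposite gained ones and lower in 5. It was higher in 69 of the 136, 29 of the 55 and 8 of the 14. With the place gained on both strands kept, the ratio opposite the gained windows was 1.62. Leaving out the 1 opposite window with an IgG site gave 1.25 (interval 1.09 to 1.44). The sum rested on few windows, and of the 5 with the most cDNAs, 2 had a higher share at ZGA and 3 a lower one. Opposite chr9:8410001-8420000, which went from 3 to 23 cDNAs on the plus strand, the minus strand went from 71 to 159. Opposite chr5:54140001-54150000, which went from 5 to 32 on the minus strand, the plus strand went from 18 to 99 and held 4 IgG cDNAs. Opposite chr9:8450001-8460000 it went from 116 to 90, and opposite chr8:15070001-15080000, itself at 3 and 19 on the plus strand, the minus strand went from 73 to 31. At chr3:10240001-10250000 the minus strand went from 17 to 63 cDNAs while the plus strand went from 71 to 0.

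The multi-mapping tables, made from the same samples, hold fractional cDNA values for reads that matched several places and were not used by the rule. No hnRNP A1 multi-mapping site was listed in 89 gained windows, and 39 held at least 1 such cDNA over both stages. In these 39 windows the multi-mapping share was higher at ZGA in 21 and lower in 18, and at least 4 times as high in 9. Among the 85 lost windows with at least 1 such cDNA it was higher in 39 and at least 4 times as high in 17. Among the 299 such windows within 2-fold these counts were 114 and 49. A ratio of 4 in this readout was thus not particular to the gained windows. The multi-mapping cDNAs of all gained windows rose in sum from 1053 (preZGA) to 2544 (ZGA), which gave 1.41 as the ratio of shares. A single window, chr16:16400001-16410000 on the plus strand, held 755 and 1287 of these, and without it the sums were 298 and 1256 with a ratio of 2.47. With all windows kept, the ratio was 0.704 in the windows within 2-fold and 0.493 in the lost windows. Without the strongest window of each class it was 0.728 and 0.720.

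That chromosome 16 window was gained by its uniquely mapped cDNAs, which went from 12 to 73 at a ratio of 7.38, while its multi-mapping cDNAs had a ratio of 0.998. The next 4 by multi-mapping ZGA cDNAs had ratios above 1 in both readouts. In chr7:62410001-62420000 on the minus strand the multi-mapping cDNAs went from 80.8 to 433, in chr24:32840001-32850000 on the minus strand from 30.5 to 193, and in chr24:36640001-36650000 on the plus strand from 28.9 to 173. In chr13:3050001-3060000 on the minus strand they went from 33.1 to 88.4. All 5 of these windows also held IgG multi-mapping sites at ZGA, with 0.717 to 9.07 cDNAs. Over the 190 windows, 22 held an IgG multi-mapping site, with 10.5 cDNAs in all at preZGA and 34.0 at ZGA. The choice of windows without an IgG site thus holds for unique mapping only. Such a site was listed in 36 of the 529 lost windows and 144 of the 1714 within 2-fold. Among the 48 higher windows of at least 100 cDNAs it was listed in 8. The IgG multi-mapping cDNAs at ZGA were 4.98, 29.0 and 5.57 in these classes. At least 1 such cDNA over both stages was held by 7 gained windows, against 2, 11 and 3.

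**Figure D4:**
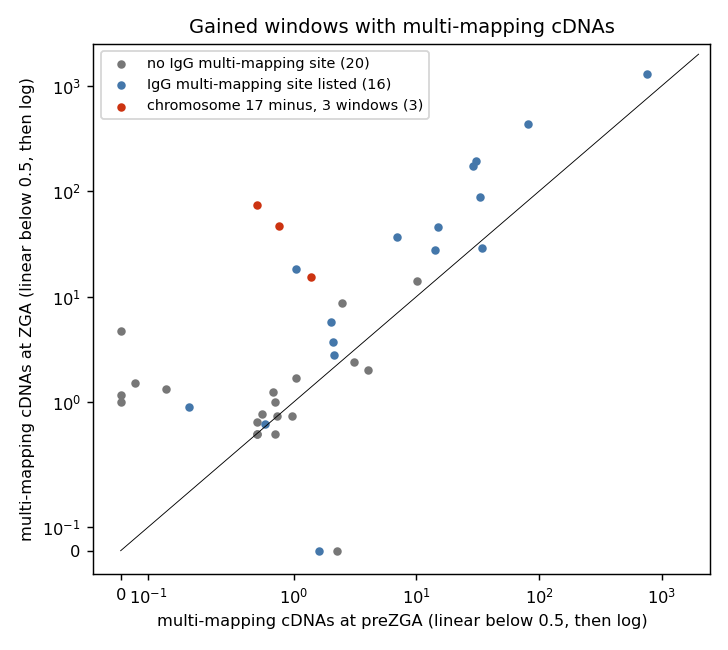
Multi-mapping hnRNP A1 cDNAs at preZGA (horizontal axis) and ZGA (vertical axis), both linear below 0.5 and logarithmic above, for the 39 gained windows with at least 1 such cDNA, 1 point per window, with the line of equal counts. Equal shares lie above this line, since the multi-mapping totals were 39530 cDNAs at preZGA and 67522 at ZGA. The 3 chromosome 17 windows stand far above the line with no IgG multi-mapping site, and the window at the upper right is the one on chromosome 16.

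Gained windows seldom lay side by side. There were 2 adjacent pairs on 1 strand among the 190, against 6 among the 529 lost windows and 56 among the 1714 within 2-fold. Within 100 kb of another gained window lay 22 windows (11.6%) in 10 groups, against 18.5% of the lost windows and 34.1% of those within 2-fold, which are more numerous. The first pair was chr5:44830001-44850000 on the plus strand. Its left window went from 7 to 55 cDNAs and its right window from 0 to 59. In the left window the 29 ZGA sites spanned 3729 nucleotides, whereas the right window had its 20 sites within 23 nucleotides.

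The second pair was chr17:50550001-50570000 on the minus strand, with a further gained window at chr17:50590001-50600000. The uniquely mapped cDNAs went from 0 to 46, from 0 to 50 and from 4 to 24 in these 3 windows, at 32, 33 and 20 ZGA sites. The multi-mapping cDNAs, which did not choose them, went from 0.753 to 47.2, from 1.38 to 15.3 and from 0.5 to 73.2. Both readouts were thus higher at ZGA in each of the 3 windows. A multi-mapping read matches several places, so these windows may share reads and need not be separate cases, which was not tested. Over the 50 kb from 50550001 to 50600000, a stretch set after these values were seen, the minus strand held 7 unique and 4.47 multi-mapping cDNAs at preZGA against 126 and 142 at ZGA. No table listed a plus-strand site there, and no IgG table listed a site on either strand. To the left of this stretch, no site was listed in the nearest window, and the window from 50530001 to 50540000 went from 0 to 10 unique cDNAs. The next windows to the left went from 5 to 0 and from 18 to 17.

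**Figure D5:**
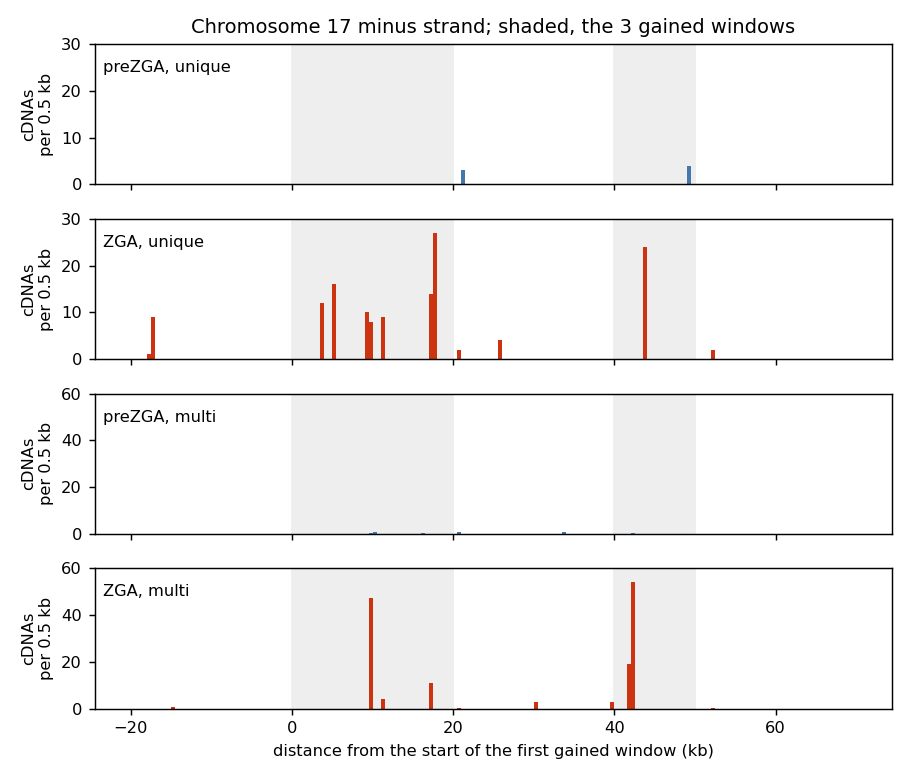
hnRNP A1 cDNAs per 0.5 kb on the minus strand of chromosome 17 (vertical axes), by stage and mapping, against the distance in kb from the start of the first gained window (horizontal axis), with the 3 gained windows shaded. Both ZGA panels show separate peaks inside the shaded windows, and both preZGA panels are nearly empty.

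The gained windows were divided about evenly between strands, 93 plus and 97 minus, and every one of the 25 chromosomes had at least 1. As a percentage of the eligible windows of a chromosome they were highest on chromosome 8, with 15 of 134 (11.2%, interval 6.40 to 17.8), and chromosome 13, with 16 of 151 (10.6%, interval 6.18 to 16.6). They were lowest on chromosome 20, with 1 of 114 (0.877%, interval 0.0222 to 4.79). Over all eligible windows the percentage was 5.87%. The intervals of chromosomes 8 and 20 did not overlap, but each was picked as an extreme of 25, so nothing is read from this. The genes and sequences in these windows were not analysed here.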

How the data were processed

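Zebrafish embryo iCLIP of hnRNP A1 and IgG was analysed from 26 deposited files of 13 samples, which held 8 distinct tables: unique and multi mapping for each of 4 groups. Every sample of a group carried the same pooled table, which was counted once. Per the labels, each table is the authors' bedGraph of signed cDNA counts on Zv9 (Ensembl 72 annotation), where the sign gives the strand, pooled over samples and restricted to sites with a false discovery rate under 0.01 (100 randomisations, neighbourhood of 15 nucleotides). Multi-mapping values are fractional. CASAVA 1.4 appears among the submitters' processing notes, and the aligner was not given in the sources used here. One label speaks of 3 summed replicates, whereas the ZGA hnRNP A1 table names 4 libraries. The filter was applied to each pool by itself, so a table's depth affects which weak sites it lists.

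Absolute counts were summed per 10 kb window and strand. The share ratio is the window's fraction of the ZGA table total over its fraction of the preZGA total, with exact conditional binomial intervals; shares have exact Clopper-Pearson intervals. The code ran under Python 3.11.15 with pandas 2.3.3, scipy 1.17.1, numpy 2.4.6 and, for plots, matplotlib 3.10.9, and was tested on simulated data. With 1 pooled table per group, no test between stages was made.

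The windows and lists were chosen with earlier results of these data known. Windows named with values were drawn from the 20 with the most ZGA cDNAs, the longest runs of adjacent windows, and the 5 at each extreme: largest and smallest share at 1 nucleotide, most sites, most preZGA cDNAs, most multi-mapping ZGA cDNAs, strongest adjacent windows, strongest opposite strands, and nearest the ratio limit on each side. No reference of the Zv9 build was used here, so positions are given without genes or sequences; coordinates count from 1. Alternatives covered the window grid and size, scaling, site strength, mapping, IgG filter, depth, ratio limit and distances.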

Additional observations from a re-analysis of the deposited data

How the results depend on the processing

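The number of gained windows was 190 and ranged from 168 to 242 under the shifted grid, 5 and 20 kb windows, other scalings, other IgG filters, site counts, added multi mapping and a thinned preZGA table. It was 116 with sites of at least 2 cDNAs, 100 at a ratio limit of 8 and 513 at a limit of 2. The windows found were not always the same. Of the 190, 150 were kept with site counts, 167 with multi mapping added and 175 with the thinned preZGA table. With sites of at least 2 cDNAs the median number of sites was 7 and the median share at the strongest nucleotide 27.8%. The cluster share was 87.2% at a joining distance of 3 nucleotides, and the preZGA sites near a ZGA site were 60.8% at 1 nucleotide and 45.4% at 0. The adjacent ratio was 0.770 without IgG windows and 0.871 when totals left out the 10 strongest windows. Chosen after seeing the data, leaving out its 1 or 2 strongest windows gave 0.785 and 0.759, and keeping neighbours that were gained windows gave 0.858. The opposite-strand ratio was 1.25 without IgG windows and 1.23 or 1.39 without its 1 or 2 strongest windows and 1.62 with the place gained on both strands (these also chosen later), and the multi-mapping ratio was 2.47 without its strongest window (chosen later). Among the 20 windows with the most ZGA cDNAs, 16 had a ratio, and 94 alternative log2 share ratios were computed for them. Of these, 84 were at least 2, and the lowest was 0.522. No result changed direction. No paired analysis was possible because each group is 1 pooled table, and for the same reason no sample could be left out.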

Other observations

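Both strands of chr8:47340001-47350000 were gained windows, the only such case among the 190, and it was named after its values were seen. Neither strand had a preZGA site. On the plus strand 23 of 24 ZGA cDNAs ended at position 47348052, and on the minus strand all 20 ended at position 47349467, and no multi-mapping cDNA was listed on either strand.

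Outside the rule for named windows, chr8:41020001-41030000 on the minus strand went from 0 to 21 unique cDNAs. Its multi-mapping cDNAs went from 1.05 to 18.1, a share ratio of 10.1, and the IgG multi-mapping cDNAs there were 0.722 at preZGA and 4.30 at ZGA. The following window went from 0 to 171 unique cDNAs, and 25 unique IgG cDNAs were listed beside the gained window. Of the 143 windows with 20 to 99 cDNAs and an IgG site, 34 met every other part of the rule. Among the windows without an IgG site it was 190 of 3236 (5.87%). The uniquely mapped IgG tables listed 3709 sites at ZGA and 1508 at preZGA, so IgG sites were themselves unequal between stages. These proportions rest on the stage values of the rule and are a description only.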
